A study of Mus musculus with 15 samples.

Results

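Brown fat of mice that lack DJ-1 in this tissue was compared after 8 weeks of housing at 29 °C and at room temperature. The 7 libraries were taken by genotype and housing from 15 libraries in all: 3 from warm-housed knockouts (KO 29 °C) and 4 from knockouts at room temperature (KO RT). The knockout is the brown-fat-specific DJ-1 knockout named BDJ1KO. The other 8 libraries came from the floxed mice that the labels call WT, 4 at 29 °C (WT 29 °C) and 4 at room temperature (WT RT), also after 8 weeks, and they are used below to say where the warm response of knockouts differed. All 15 libraries were paired-end RNA-seq of brown adipose tissue. The Cre driver, the age and sex of the mice, the temperature of the room and the time of day of collection are not given in the sources used here. The labels do not state that libraries of a group came from separate mice, and a p-value here reflects how far the libraries of a group spread, which may be technical.

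Brown adipocytes burn fatty acids to make heat through UCP1, a mitochondrial protein that lets protons leak across the inner membrane. Noradrenaline from sympathetic nerves drives this programme in the cold, and warm housing withdraws that drive, so that brown fat of warm mice gains lipid and loses mitochondrial protein, a change called whitening. DJ-1, encoded by Park7, is a small redox-sensitive protein known from familial Parkinson's disease. Chaperone-mediated autophagy, the process named in the title of the series, carries single proteins into lysosomes with the chaperone HSC70 (Hspa8) and the receptor LAMP2A (a product of Lamp2).

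The deposited values are estimated counts per gene. Library totals lay between 23977400 and 26789200 counts in 14 libraries, and KO 29 °C replicate 1 had 38801000. The level of a gene is its CPM, which puts libraries on 1 scale by their totals and edgeR's TMM factors. It is not divided by transcript length, so it compares libraries and not genes. Changes are log2 fold changes of 29 °C over room temperature with their standard errors. A gene was called changed at an adjusted p below 0.05 in edgeR's quasi-likelihood test with Benjamini-Hochberg adjustment over all 15083 genes tested.

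Park7 (chromosome 4, 150897133 to 150909921, GRCm38.p6) was measured first, as a check of the genotype labels. It had 35.2, 25.4 and 34.5 CPM in KO 29 °C libraries, against 26.7, 34.1, 24.98 and 26.9 CPM in KO RT libraries. The knockout groups overlapped, and their means of 31.7 ± 5.46 CPM (SD, n = 3) and 28.2 ± 4.03 CPM (SD, n = 4) did not differ beyond that spread (exact permutation test, two-sided, p = 0.343). In the fit over all genes the change was 0.17 (adjusted p = 0.267), or 0.30 without KO 29 °C replicate 2 (adjusted p = 0.0484). KO 29 °C stood at 26.8% of the 118 ± 11 CPM of WT 29 °C (SD, n = 4), and KO RT at 25.6% of the 110 ± 1.65 CPM of WT RT (SD, n = 4). Both exact permutation tests gave p = 0.0286, the smallest two-sided p that these group sizes allow, and low Park7 set every knockout library apart from every WT library.

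Skeletal muscle transcripts marked 2 of the 3 warm knockout libraries. They made up 0.00903%, 0.0832% and 0.258% of the counts of KO 29 °C replicates 1, 2 and 3, against 0.00379% to 0.00522% in KO RT libraries. Acta1, the actin of skeletal muscle fibres, had 2.66, 108 and 302 CPM in KO 29 °C libraries, against 0.0806 to 0.380 CPM in KO RT libraries. Actn2, an actinin of the muscle Z-disc, had 1.47, 5.22 and 16.7 CPM in KO 29 °C libraries, against 0.388 to 0.604 CPM in KO RT libraries. All 3 warm libraries lay above the room-temperature ones, with replicate 1 closest to them. Of 24 tested genes of the skeletal muscle list, 19 were called higher in KO 29 °C, where 24.3% of all genes tested were, but 4 without KO 29 °C replicate 3, 7 or 8 without any single KO RT library and 3 without KO RT replicates 2 and 4. Their summed level was 83.3 to 2180 CPM in KO 29 °C against 42.8 to 55.1 CPM in KO RT. WT 29 °C replicate 2 held a like share, 0.24% of its counts. Many counts of list members called in KO, and of their called differences from WT, are therefore given below also without these 3 libraries where that moves them by over 1.5 times. That leaves 1 KO 29 °C library, assumed to vary like the other groups. Calls in KO over all genes also fall without these 3 libraries, so a lower count of a list without them need not be particular to that list. Of the skeletal muscle list, 9 were called higher in KO without them.

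Other marker sums also moved with housing. The summed macrophage markers were 257 to 395 CPM in KO 29 °C libraries, against 66 to 120 CPM in KO RT libraries. Lymphocyte markers summed to 38 to 54 CPM in KO 29 °C, against 5.47 to 11.4 CPM in KO RT. Endothelial markers summed to 789 to 1100 CPM in KO 29 °C, against 614 to 800 CPM in KO RT, and these ranges overlapped. Erythroid transcripts summed to 1460 to 2780 CPM in KO 29 °C, against 616 to 978 CPM in KO RT, and fibroblast markers to 503 to 556 CPM against 237 to 335 CPM. The sum of general adipocyte markers went the other way, with 12000 to 14700 CPM in KO 29 °C, against 15000 to 20100 CPM in KO RT. Of the 8 markers in this sum, 2 were called lower and 1 higher in KO, and 5 were not called (median -0.05). Over all genes tested, 21.7% were called lower and 24.3% higher in KO. Both counts of markers were smaller without the libraries with muscle transcripts. Brown adipocyte markers overlapped at 8730 to 11300 CPM and 7900 to 14100 CPM. Mitochondrially encoded transcripts took 26.4 ± 0.597% of counts in KO 29 °C (SD, n = 3) and 23.8 ± 1.16% in KO RT (SD, n = 4; exact permutation test, two-sided, p = 0.0571). In bulk tissue, fewer cells of a type and less RNA per cell cannot be told apart, and the part of cell composition in the results below was not tested.

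**Figure D1:**
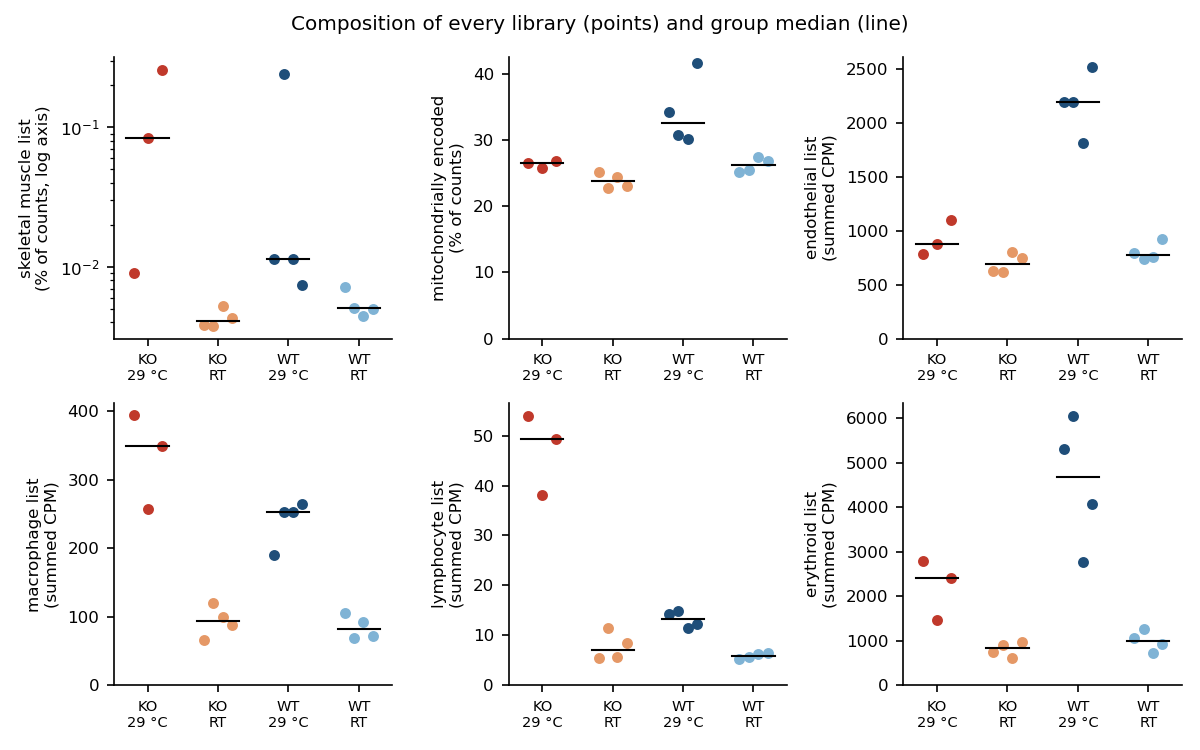
Skeletal muscle and mitochondrially encoded transcripts (percent of counts) and summed endothelial, macrophage, lymphocyte and erythroid markers (CPM) in each library, with KO 29 °C left of KO RT and WT 29 °C left of WT RT. Muscle transcripts reach 0.0832% and 0.258% in KO 29 °C replicates 2 and 3 and 0.24% in WT 29 °C replicate 2, and the lymphocyte sum is 38 to 54 CPM in KO 29 °C against 5.47 to 11.4 CPM in KO RT.

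Warm housing still changed a large part of the transcriptome in knockouts. Of 15083 genes, 6940 (46.0%) were called, 3664 higher (24.3%) and 3276 lower (21.7%), and 4374 (29.0%) were called with a change over 1.5-fold. In 7255 genes (48.1%) the 3 KO 29 °C libraries did not overlap the 4 KO RT libraries. Among the calls over 1.5-fold, 63.1% were higher, against 52.8% of all calls. Without the 3 libraries that held muscle transcripts, 4129 of 15677 genes were called. The first principal component of the 7 knockout libraries held 64.9% of their variance and placed KO 29 °C at 51.3 to 89.0 and KO RT at -59.9 to -41.0. Within KO RT, replicates 2 and 4 stood apart from replicates 1 and 3 in several genes named below: Ucp1 was lower in them and the lipogenic gene Acly higher.

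The same housing change in WT mice gave 10375 called genes (68.8%), 5421 higher (35.9%) and 4954 lower (32.8%). Of the genes higher in WT, 2876 (53.1%) were also called higher in KO and 85 were called lower. Of those lower in WT, 2658 (53.7%) were also called lower in KO and 131 were called higher. Seen from the knockout, 78.5% of its higher genes and 81.1% of its lower genes were called the same way in WT. The WT-higher genes had a median log2 fold change of 0.56 in KO, against 1.14 in WT, and the WT-lower genes -0.37 in KO, against -0.81 in WT. Over all genes tested the medians were 0.04 in KO and 0.06 in WT.

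The difference of the housing effects, KO minus WT, was tested directly and was called for 4272 genes (28.3%), 2416 higher (16.0%) and 1856 lower (12.3%). Genes called the same way in both genotypes with no called difference numbered 3958 (26.2% of those tested). A further 1492 (9.89%) were called the same way in both with a smaller change in KO, and 84 (0.557%) with a larger one. In 2074 genes (13.8%) the change was called in WT and not in KO and the difference was called, and in 216 (1.43%) the genotypes changed in opposite ways. Another 2551 genes (16.9%) were called in WT and not in KO without a called difference, so that for them a weaker response of knockouts was not shown.

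**Figure D2:**
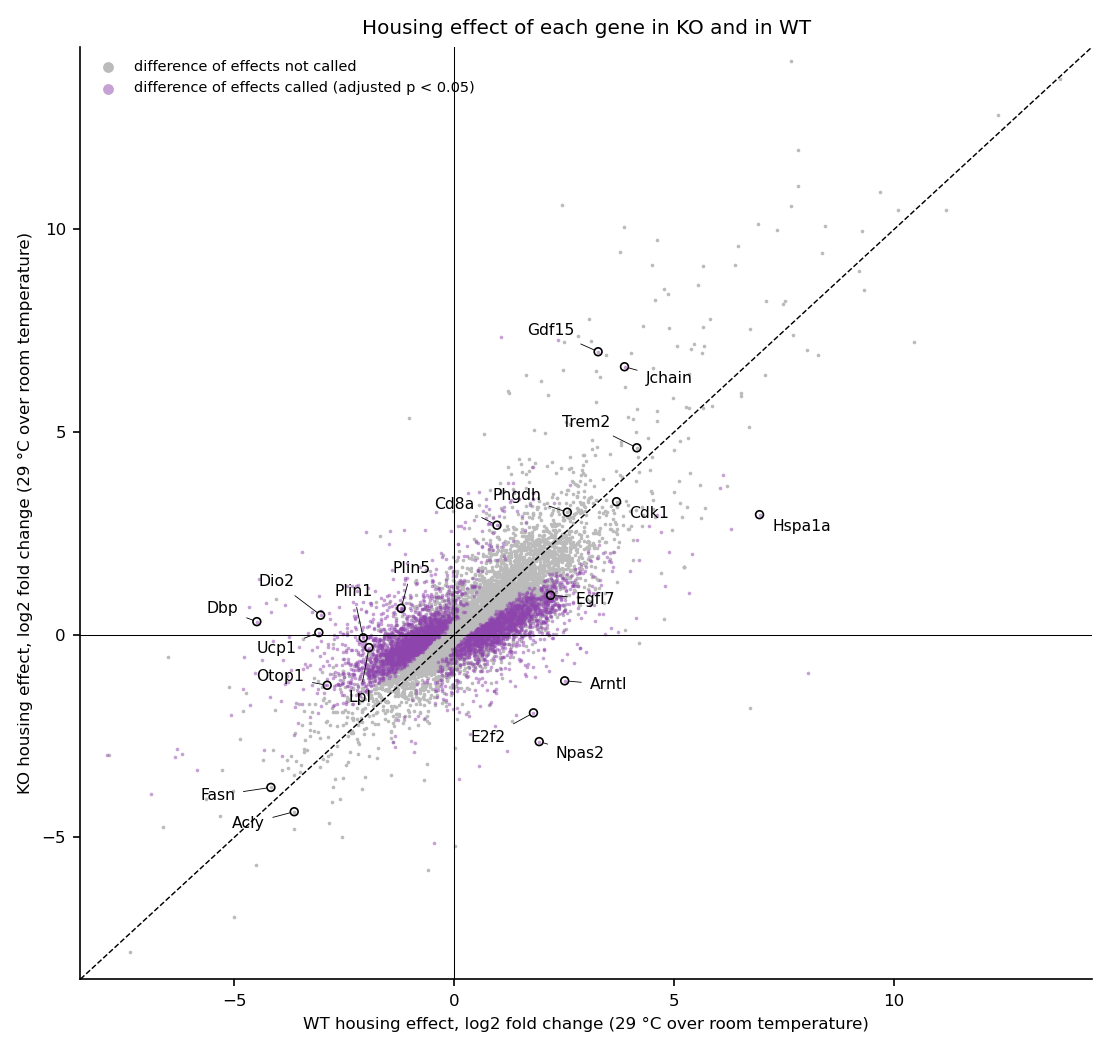
Log2 fold change of 29 °C over room temperature in KO (vertical) against the same change in WT (horizontal), each point 1 of 15083 genes, purple where the difference of the effects was called (4272 genes). Fasn, Acly and Cdk1 lie near the diagonal, whereas Ucp1 lies at 0.05 in KO and -3.08 in WT.

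**Figure D3:**
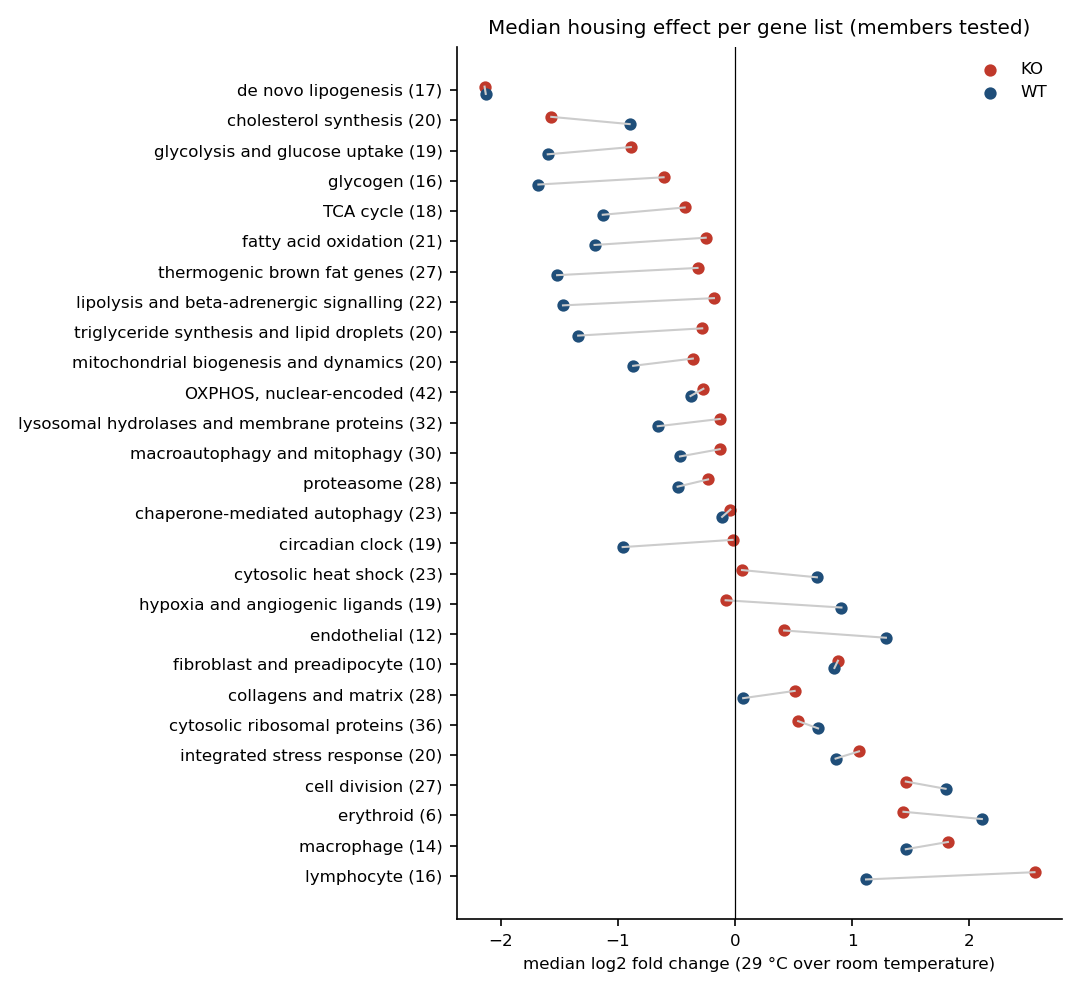
Median log2 fold change of 27 gene lists under warm housing, KO and WT values drawn on 1 row for each list. De novo lipogenesis has medians of -2.14 in KO and -2.13 in WT, and the thermogenic list -0.32 in KO and -1.52 in WT.

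Genes of fatty acid synthesis fell in knockouts, with a median close to that of WT. Of 17 tested genes of de novo lipogenesis, 14 were called lower in KO, where 21.7% of all genes were, and their median log2 fold change was -2.14 (-2.13 in WT). Fasn (chromosome 11, 120805958 to 120825166), fatty acid synthase, had 2324, 2019 and 1573 CPM in KO 29 °C libraries, against 23040, 34670, 20520 and 29430 CPM in KO RT libraries. The groups were far apart, and Fasn fell by 3.77 ± 0.66 on the log2 scale in KO (edgeR, adjusted p = 6.2e-04). Acly, which makes cytosolic acetyl-CoA from citrate, had 340, 333 and 197 CPM in KO 29 °C, against 4309, 9751, 2990 and 6915 CPM in KO RT. Its log2 fold change was -4.37 ± 0.58 (adjusted p = 7.5e-05), and all 3 warm libraries were below the lowest KO RT library, although KO RT varied by itself. For neither gene was a difference from WT called (Fasn 0.40, adjusted p = 0.738; Acly -0.73, adjusted p = 0.447).

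Other lipogenic genes also fell. Elovl6, an elongase of C16 fatty acids, had 137, 123 and 136 CPM in KO 29 °C, against 1069, 1237, 825 and 1055 CPM in KO RT (-2.99 ± 0.23, adjusted p = 6.1e-07). Its fall was smaller than in WT (-3.91, difference 0.92, adjusted p = 0.0243). Acacb, the mitochondrial acetyl-CoA carboxylase, changed by -2.14 ± 0.28 in KO and -2.13 in WT, and Slc25a1, which exports citrate from mitochondria, by -2.52 ± 0.29 in KO and -2.87 in WT. Thrsp, a lipogenic regulator, changed by -1.93 ± 0.23 in KO and -1.79 in WT. In Elovl5, a polyunsaturated fatty acid elongase, the fall was larger in KO, with 65.5, 71.7 and 72.1 CPM in KO 29 °C against 277, 334, 228 and 306 CPM in KO RT (-2.04 ± 0.13 in KO, -1.15 in WT, difference -0.89, adjusted p = 0.00142). Acsl5, an acyl-CoA synthetase, fell by 3.38 ± 0.24 in KO, and Slc2a5, the fructose transporter, fell by 4.13 ± 0.92. The call of Slc2a5 was lost without the libraries with muscle transcripts.

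Cholesterol synthesis genes fell in knockouts, and 9 of them fell relative to WT. Of 20 tested genes, 18 were called lower in KO (median -1.57) and 13 in WT (median -0.90), and the 9 called differences were all lower in KO, as were those of 12.3% of all genes. Cyp51, lanosterol demethylase, had 21.2, 16.9 and 19.3 CPM in KO 29 °C, against 52.1, 90.4, 40.8 and 65.9 CPM in KO RT (-1.70 ± 0.22 in KO, -0.13 in WT, difference -1.57, adjusted p = 0.00112). Its knockout groups did not overlap, and in WT it was not called. Nsdhl and Idi1, a sterol dehydrogenase and the isomerase of isopentenyl diphosphate, fell by 2.44 ± 0.24 and 2.14 ± 0.24 in KO without a called difference. Srebf2, the transcription factor that drives the pathway, was not called in KO (-0.28, adjusted p = 0.104). It was called at the same change without WT 29 °C replicate 3 or 4 (adjusted p = 0.0460 and 0.0265). Without the libraries with muscle transcripts 12 members were called lower in KO, with 3 called differences, and without KO 29 °C replicate 2 there were 5. Without KO RT replicates 2 and 4 the 18 calls of the list were again 18 (median -1.14), with 6 called differences.

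Promoters of this pathway are printed because its members moved together. The windows are the 250 bases before the annotated start, from RefSeq on GRCm38.p6, given 5′ to 3′ along the gene, with capitals for the letters CCAAT or, on the other strand, ATTGG, and in Hmgcs1 also for TCACNCCAC, the core of a sterol regulatory element. Hmgcs1, HMG-CoA synthase, lies on the plus strand at chr13:119690101-119690350, Nsdhl on the plus strand at chrX:72918271-72918520 and Idi1 on the plus strand at chr13:8885356-8885605.
Hmgcs1: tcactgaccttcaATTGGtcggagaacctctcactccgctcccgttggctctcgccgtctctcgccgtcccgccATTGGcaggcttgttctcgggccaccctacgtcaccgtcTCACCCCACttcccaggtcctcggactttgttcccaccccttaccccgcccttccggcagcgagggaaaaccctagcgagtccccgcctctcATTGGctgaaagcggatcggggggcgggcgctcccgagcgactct
Nsdhl: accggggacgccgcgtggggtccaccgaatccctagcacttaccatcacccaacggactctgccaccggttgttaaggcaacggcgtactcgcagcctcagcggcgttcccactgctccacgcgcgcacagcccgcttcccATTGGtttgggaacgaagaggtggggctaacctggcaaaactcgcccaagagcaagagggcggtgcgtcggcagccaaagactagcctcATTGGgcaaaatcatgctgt
Idi1: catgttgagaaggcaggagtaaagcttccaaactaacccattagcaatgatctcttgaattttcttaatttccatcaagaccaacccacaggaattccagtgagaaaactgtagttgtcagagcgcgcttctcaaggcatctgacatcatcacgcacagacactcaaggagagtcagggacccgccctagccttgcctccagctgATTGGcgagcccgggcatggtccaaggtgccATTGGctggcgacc
Of 14 cholesterol synthesis genes with a matched promoter, 13 (92.9%) held CCAAT on either strand, against 36% of the 11213 matched promoters of genes tested and 34.5% of all 27025 promoters of the same length. TCACNCCAC on either strand was in 1 of the 14 (7.14%), Hmgcs1, against 1.03% of tested promoters. Hmgcs1 itself changed by -0.44 in KO (adjusted p = 0.0329), a call lost in turn without KO 29 °C replicate 1 or 2 or KO RT replicate 1 or 4 (adjusted p = 0.0561 to 0.119), and without the libraries with muscle transcripts (adjusted p = 0.0658). For de novo lipogenesis, CCAAT was in 8 of 14 promoters (57.1%). A match describes these letters and not a bound site.

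Genes of sugar metabolism fell in both genotypes, and many fell less in knockouts. Of 19 tested genes of glycolysis and glucose uptake, 14 were called lower in KO (median -0.89) and 18 in WT (median -1.60), beside 21.7% and 32.8% of all genes. The difference was called higher for 12, where 16.0% of all genes had one. Ldha, lactate dehydrogenase, had 995, 930 and 779 CPM in KO 29 °C, against 2096, 2067, 1791 and 1929 CPM in KO RT (-1.13 ± 0.11, adjusted p = 2.5e-06; difference 0.48, adjusted p = 0.0264). The called difference of Ldha was lost when any of 5 single libraries was left out (adjusted p = 0.0516 to 0.0820). Pgk1, phosphoglycerate kinase, had 616, 626 and 513 CPM in KO 29 °C, against 1168 to 1236 CPM in KO RT (-1.03 ± 0.09; -1.86 in WT). Neither gene had overlapping knockout groups. Slc2a1, the glucose transporter GLUT1, was the 1 member that rose in KO (0.83; 0.79 in WT). Pdk1, which shuts pyruvate out of the TCA cycle, changed by -1.86 ± 0.17 in KO and -2.09 in WT. Of 16 glycogen genes, 11 were called lower in KO, but 6 without the libraries with muscle transcripts. Gys1, a glycogen synthase, had 112, 137 and 93.4 CPM in KO 29 °C, against 333, 313, 268 and 277 CPM in KO RT (-1.38 ± 0.12, adjusted p = 8.5e-07). Pygl, glycogen phosphorylase, fell by 2.26 ± 0.22 in KO. Pygm, the phosphorylase of muscle, was the 1 member that rose in KO (3.36), beside the muscle transcripts above, and without those libraries its change was 0.32 (adjusted p = 0.524).

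Ucp1 and most of the thermogenic list were not called changed in warm-housed knockouts, whereas they fell in WT. Ucp1 (chromosome 8, 83290348 to 83298456) had 6933, 8596 and 6170 CPM in KO 29 °C libraries, against 9644, 4953, 8630 and 4778 CPM in KO RT libraries. The groups overlapped, and the change was 0.05 ± 0.23 (adjusted p = 0.887). In WT mice Ucp1 averaged 1019 ± 203 CPM at 29 °C and 8602 ± 1022 CPM at room temperature (SD, n = 4 each), a change of -3.08 (adjusted p = 1.7e-08). The difference of the effects was 3.12 ± 0.32 (adjusted p = 1.8e-05). Without KO RT replicates 2 and 4 the change in KO was -0.34 (adjusted p = 0.183) and the difference 2.74 (adjusted p = 5.9e-05). Brown adipocyte marker sums overlapped between the knockout groups, as given above.

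Of 27 tested thermogenic genes, 8 were called lower and 3 higher in KO (median -0.32), beside 21.7% and 24.3% of all genes, while 24 were called lower in WT (median -1.52). The difference was called higher for 19, beside 16.0% of all genes, and for fewer without the libraries with muscle transcripts. Dio2, which activates thyroid hormone, had 179, 347 and 321 CPM in KO 29 °C, against 302, 159, 289 and 58.8 CPM in KO RT. Ppargc1a, the coactivator PGC-1α, had 31.4, 26.6 and 65.9 CPM in KO 29 °C, against 40.6, 29.6, 67.9 and 32.3 CPM in KO RT. The knockout groups overlapped in both, and both differed from WT (Dio2 3.53, adjusted p = 0.0154; Ppargc1a 2.61, adjusted p = 0.00560). Without the libraries with muscle transcripts these differences were 2.69 (adjusted p = 0.164) and 2.07 (adjusted p = 0.0599). The lipid droplet protein Plin5 rose in KO, with 250, 337 and 210 CPM in KO 29 °C against 199, 144, 184 and 149 CPM in KO RT (0.65 ± 0.14, adjusted p = 0.00123; -1.21 in WT). The other two members that rose in KO were Ppara, a nuclear receptor of fatty acid oxidation (0.86; -0.72 in WT), and S100b, a calcium-binding protein that in brown fat supports innervation (0.66; -0.42 in WT). Both calls were lost without KO RT replicates 2 and 4, that of Ppara also without the libraries with muscle transcripts.

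Some thermogenic genes did fall without DJ-1. Otop1, a proton channel of brown fat, had 89.5, 139 and 93.8 CPM in KO 29 °C, against 288, 249, 248 and 233 CPM in KO RT (-1.25 ± 0.14, adjusted p = 5.7e-06; -2.89 in WT). Letmd1, a mitochondrial protein needed for brown fat thermogenesis, had 344, 391.7 and 305 CPM in KO 29 °C, against 861, 731, 836 and 748 CPM in KO RT (-1.19 ± 0.10; -2.34 in WT). Kcnk3, a potassium channel that restrains thermogenesis, changed by -0.78 ± 0.13 in KO and -1.46 in WT. In all 3 the knockout groups were separate, and the fall was smaller than in WT (differences 1.65, 1.15 and 0.68; adjusted p = 2.2e-05, 3.3e-05 and 0.00914), that of Kcnk3 not without the libraries with muscle transcripts (0.43, adjusted p = 0.188). Elovl3, a cold-induced elongase, had 13.2, 5.26 and 15.8 CPM in KO 29 °C, against 175, 193, 66.0 and 32.0 CPM in KO RT (-3.34 ± 0.68, adjusted p = 0.00196). Its call was lost without the libraries with muscle transcripts. Cidea, a droplet fusion protein, was not called in KO (-0.40, adjusted p = 0.0952), except without WT 29 °C replicate 1 (adjusted p = 0.0499).

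Adrenergic and lipolytic genes followed the thermogenic ones. Of 22 tested, 9 were called lower in KO (median -0.18) and 19 in WT (median -1.47), and 16 differences were called higher. The shares of all genes were 21.7%, 32.8% and 16.0%. Fewer differences were called higher without the libraries with muscle transcripts. Plin1, the droplet gatekeeper of lipolysis, had 600, 728 and 544 CPM in KO 29 °C, against 711, 686, 634 and 603 CPM in KO RT. Its knockout groups overlapped (-0.08, adjusted p = 0.652; difference from WT 1.99, adjusted p = 5.9e-06). Pnpla2, the triglyceride lipase ATGL, had 2168, 2395 and 1539 CPM in KO 29 °C, against 3724, 3632, 3039 and 3079 CPM in KO RT (-0.73 ± 0.15, adjusted p = 8.0e-04). Mgll, monoglyceride lipase, fell as in WT (-1.18 ± 0.13 in KO, -0.97 in WT). Adcy10, a soluble adenylyl cyclase, had 0.547, 1.35 and 0.797 CPM in KO 29 °C, against 13.4, 18.2, 7.86 and 14.1 CPM in KO RT (-3.93 ± 0.34, adjusted p = 1.1e-06; -6.89 in WT). Its knockout groups did not overlap, and its called difference was lost without the libraries with muscle transcripts (2.55, adjusted p = 0.0561). Lpl, lipoprotein lipase, was not called (-0.32, adjusted p = 0.196; -1.94 in WT, difference 1.63, adjusted p = 3.8e-04), but was without KO RT replicates 2 and 4 (-0.60, adjusted p = 0.0225). Of 20 genes of triglyceride synthesis and lipid droplets, 7 were called lower in KO and 16 in WT, beside 21.7% and 32.8% of all genes. Agpat2 and Mogat1, acyltransferases of triglyceride synthesis, fell by 2.10 ± 0.23 and 2.95 ± 0.27 in KO without a called difference, while Gpam, the first acyltransferase, fell by 1.05 ± 0.12 in KO against 2.32 in WT.

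Some mitochondrial genes fell in knockouts, and 19 of 21 fatty acid oxidation genes had a called difference from WT, higher in KO. Over all genes tested, 21.7% were called lower and 24.3% higher in KO, 32.8% lower in WT, and 16.0% had a difference called higher. Of the 21 fatty acid oxidation genes, 8 were called lower and 2 higher in KO (median -0.25), and 11 were not called. In WT 19 were called lower (median -1.20). The 2 higher calls became 1 without KO 29 °C replicate 1 or 2, or without the KO RT libraries that stood apart. They were also fewer without the libraries with muscle transcripts. Hadha, the trifunctional protein's alpha subunit, had 1048, 1267 and 893 CPM in KO 29 °C, against 2313, 2129, 2049 and 2012 CPM in KO RT (-0.99 ± 0.11, adjusted p = 6.0e-06; -2.27 in WT). Cpt1a, a carnitine palmitoyltransferase, rose, with 20.3, 17.2 and 18.4 CPM in KO 29 °C against 9.22 to 12.5 CPM in KO RT (0.79 ± 0.12, adjusted p = 8.5e-05; 0.26 in WT). Of 18 TCA cycle genes, 11 were called lower in KO (median -0.43) and 17 in WT (median -1.13), with 7 lower in KO without the libraries with muscle transcripts. Dlst, of the oxoglutarate dehydrogenase complex, had 628, 696 and 542 CPM in KO 29 °C, against 1392, 1237, 1311 and 1264 CPM in KO RT (-1.06 ± 0.10; -1.32 in WT, with no called difference). Idh2, the mitochondrial NADP isocitrate dehydrogenase, rose in both, with 505, 469 and 385 CPM in KO 29 °C against 203, 184, 234 and 218 CPM in KO RT (1.11 ± 0.11; 0.93 in WT).

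Respiratory chain transcripts changed unevenly. Over all genes tested, 21.7% were called lower in KO. Of 42 nuclear-encoded genes, 18 were called lower in KO (median -0.27) and 24 in WT (median -0.38), with 10 lower in KO without KO 29 °C replicate 3 and 8 without the libraries with muscle transcripts. The difference was called higher for 12 and lower for 3, beside 16.0% and 12.3% of all genes. It was called lower for 5 without KO 29 °C replicate 1, and for fewer than 3 without the libraries with muscle transcripts. Ndufs1, of complex I, had 464, 474 and 345 CPM in KO 29 °C, against 642, 677, 638 and 669 CPM in KO RT (-0.62 ± 0.11; -1.62 in WT). Atp5k, of ATP synthase, and Uqcr10, of complex III, changed by -0.94 ± 0.10 and -0.85 ± 0.13 in KO. In WT their changes were 0.10 and -0.10, and neither was called. The difference was called for both (Atp5k -1.04, adjusted p = 7.2e-05; Uqcr10 -0.75, adjusted p = 0.00578), for Uqcr10 not without the libraries with muscle transcripts (adjusted p = 0.0914). Among 13 mitochondrially encoded genes, 4 were called lower in KO, but 7 without WT 29 °C replicate 4, 2 without KO RT replicates 2 and 4 and 1 without the libraries with muscle transcripts. ATP8 had 276, 242 and 293 CPM in KO 29 °C, against 965, 1014, 1025 and 937 CPM in KO RT (-1.86 ± 0.24, adjusted p = 2.7e-05; -0.17 in WT). ATP8 overlaps ATP6 on the mitochondrial genome, so the assignment of its reads is uncertain. COX2 fell by 0.46 ± 0.14, a call lost without the libraries with muscle transcripts. Of 20 genes of mitochondrial biogenesis and dynamics, 12 were called lower in KO and 16 in WT. Opa1, which fuses inner membranes, had 166, 182 and 124 CPM in KO 29 °C, against 286, 255, 254 and 258 CPM in KO RT (-0.74 ± 0.11; -1.77 in WT).

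**Figure D4:**
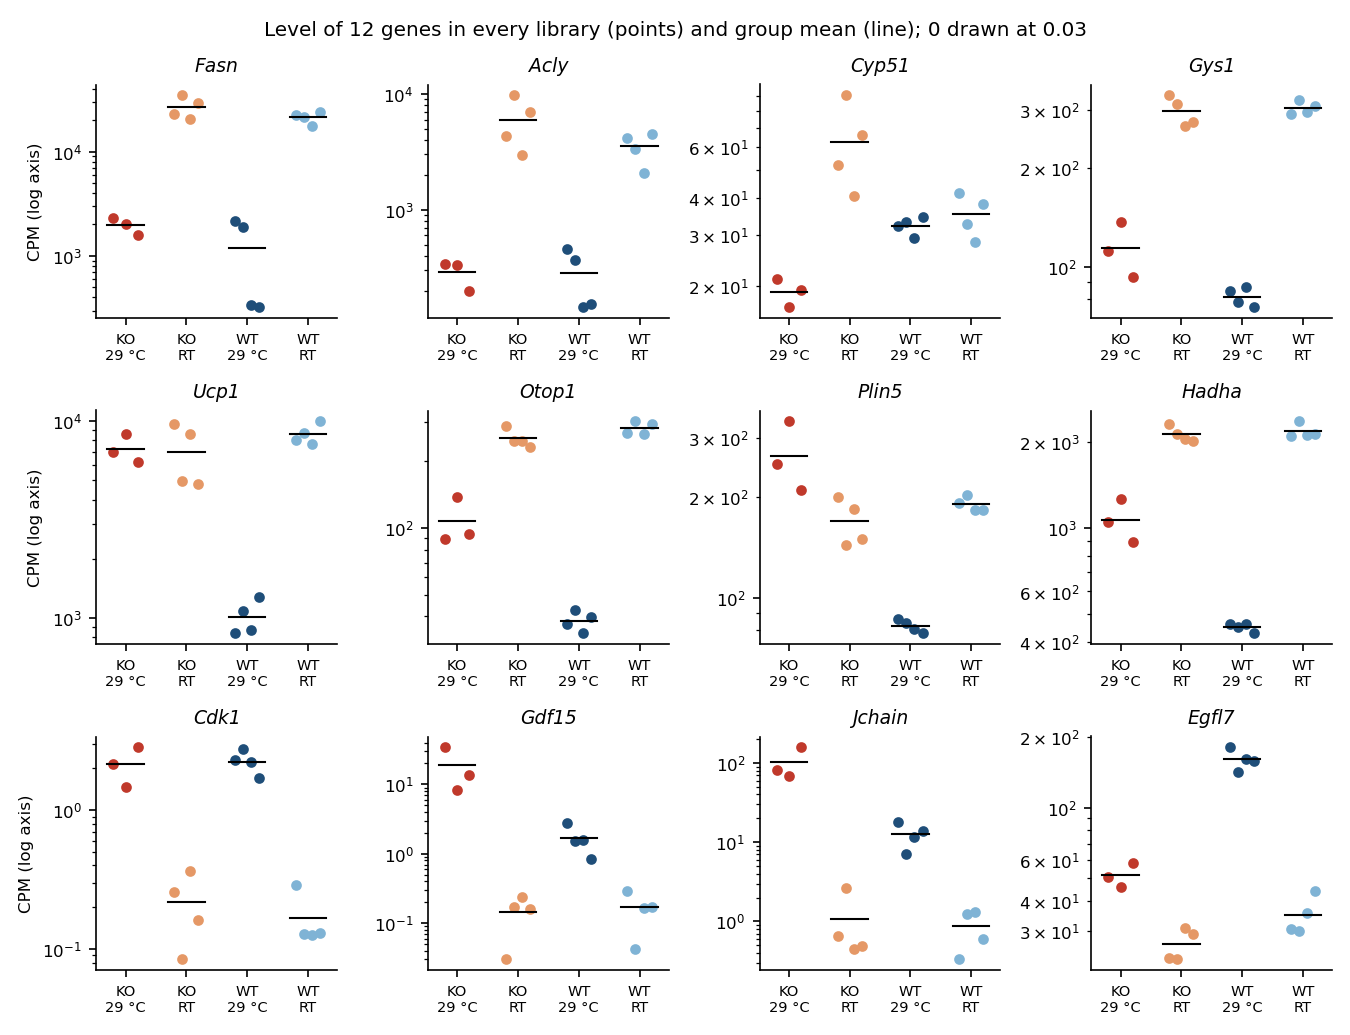
Level of 12 genes in every library (CPM, log axis, with a level of 0 drawn at 0.03), KO 29 °C left of KO RT and WT 29 °C left of WT RT. Fasn drops in both genotypes, Ucp1 keeps 6170 to 8596 CPM in KO 29 °C against 1019 ± 203 CPM in WT 29 °C, and Gdf15 reaches 8.38 to 34.5 CPM in KO 29 °C.

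Genes of cell division rose with warm housing in both genotypes. Of 27 tested, 24 were called higher in KO (median 1.46), where 24.3% of all genes were, and 23 in WT (median 1.80). Cdk1, the kinase that starts mitosis, had 2.14, 1.47 and 2.84 CPM in KO 29 °C, against 0.259, 0.0843, 0.363 and 0.163 CPM in KO RT (3.28 ± 0.38, adjusted p = 7.2e-06; 3.69 in WT). Mki67, the proliferation antigen Ki-67, had 7.66, 4.58 and 11.8 CPM in KO 29 °C, against 0.345, 1.43, 1.41 and 1.02 CPM in KO RT (2.92 ± 0.39). The groups were separate in both. Mcm6, of the replicative helicase, changed by 1.36 ± 0.17 in KO and 1.36 in WT. Without the libraries with muscle transcripts 21 members were called higher. Aurka, a mitotic kinase, was among those not called (-0.23).

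E2f2 (chromosome 4, 136172274 to 136196057), an E2F transcription factor, was the member that fell in KO. It had 5.54, 7.44 and 6.86 CPM in KO 29 °C, against 22.3, 31.3, 20.5 and 26.7 CPM in KO RT. The change was -1.93 ± 0.20 in KO (adjusted p = 2.7e-06) and 1.80 in WT (adjusted p = 2.1e-07), with a difference of -3.74 (adjusted p = 8.1e-07). In KO its groups were separate and the room-temperature libraries were the high ones.

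The promoter of Cdk1, on the minus strand of GRCm38.p6 at chr10:69352913-69353162, is printed as the promoter of the list's leading riser, with capitals for CCAAT or ATTGG and for TTTNGCGC, an E2F motif, on either strand.
Cdk1: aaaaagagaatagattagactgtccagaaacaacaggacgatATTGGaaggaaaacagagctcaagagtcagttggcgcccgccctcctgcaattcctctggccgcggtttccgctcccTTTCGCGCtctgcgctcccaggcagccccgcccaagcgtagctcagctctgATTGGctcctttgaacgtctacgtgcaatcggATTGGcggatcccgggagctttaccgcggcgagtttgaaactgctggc
CCAAT was in 20 of 23 cell division promoters (87%), against 36% of those of tested genes, and TTTNGCGC in 3 of 23 (13%), against 1.95%.

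Transcripts of cytosolic ribosomal proteins rose modestly and together, where 24.3% of all genes in KO and 35.9% in WT were called higher. Of 36 tested, 32 were called higher in KO (median 0.54) and 35 in WT (median 0.71), and 31 were called higher in KO without the libraries with muscle transcripts. Many ribosomal protein genes have near-identical pseudogene copies, so single members are uncertain. Of 28 proteasome genes, 13 were called lower in KO and 20 in WT, beside 21.7% and 32.8% of all genes. Fewer were called lower in KO without the libraries with muscle transcripts.

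Lymphocyte transcripts rose in knockouts, in part further than in WT. All 16 tested lymphocyte markers were called higher in KO (median 2.56) and 9 in WT (median 1.12), and 8 differences were called higher. The shares of all genes were 24.3%, 35.9% and 16.0%. The called differences numbered 3 to 5 when any 1 of 10 libraries was left out: KO 29 °C replicate 1 or 3, KO RT replicate 1, 3 or 4, WT 29 °C replicate 3 or any WT RT library. Without the libraries with muscle transcripts 13 were called higher in KO. Jchain, the joining chain of secreted antibodies, had 82.2, 69.0 and 159 CPM in KO 29 °C, against 0.647, 2.66, 0.443 and 0.488 CPM in KO RT (6.61 ± 0.60, adjusted p = 5.6e-06; 3.87 in WT, difference 2.74, adjusted p = 0.0320). That difference was lost when any of 7 single libraries was left out (adjusted p = 0.0525 to 0.0866), and without the libraries with muscle transcripts (2.15, adjusted p = 0.120). Mzb1, a plasma cell chaperone, had 2.97, 3.91 and 5.58 CPM in KO 29 °C, and was at 0 in 3 KO RT libraries and at 0.0806 CPM in 1 (adjusted p = 4.2e-07). Cd3d, a chain of the T cell receptor complex, had 3.47, 1.77 and 3.22 CPM in KO 29 °C, against 0.216, 0.590, 0.282 and 0.244 CPM in KO RT (3.07 ± 0.38; 1.08 in WT, difference 1.99, adjusted p = 0.0134). Cd8a, of cytotoxic T cells, had 7.13, 2.86 and 5.03 CPM in KO 29 °C, against 0.517, 1.39, 0.524 and 0.650 CPM in KO RT (2.70 ± 0.36). In each of these genes the warm knockout libraries lay above all KO RT libraries. The inhibitory receptors Pdcd1 and Tigit reached 0.714 to 2.73 and 0.676 to 1.45 CPM in KO 29 °C, against at most 0.127 and 0.0843 CPM in KO RT (adjusted p = 2.0e-04 and 1.9e-04).

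Macrophage genes rose in both genotypes, where 24.3% of all genes in KO and 35.9% in WT were called higher. Of 14 markers, 12 were called higher in KO (median 1.82) and 13 in WT (median 1.46), and the same number, 12, was called in KO without the libraries with muscle transcripts. Trem2, a lipid-sensing receptor of macrophages, had 6.70, 6.31 and 7.83 CPM in KO 29 °C, against 0.0431, 0.633, 0.363 and 0.0813 CPM in KO RT (4.61 ± 0.53, adjusted p = 1.2e-05; 4.15 in WT). Mmp12, macrophage elastase, had 21.5, 24.95 and 50.7 CPM in KO 29 °C, against 0.216, 0.633, 1.17 and 0.528 CPM in KO RT (5.65 ± 0.53; 5.86 in WT). Both sets of libraries were separate, and for neither was a difference between genotypes called. Cd68, a lysosomal protein of phagocytes, had 21.9, 17.7 and 26.4 CPM in KO 29 °C, against 3.41, 5.61, 5.72 and 3.70 CPM in KO RT (2.25 ± 0.24; 1.10 in WT, difference 1.15, adjusted p = 0.0155, or 0.0624 without the libraries with muscle transcripts). Interferon-stimulated genes depended on 1 room-temperature library. Their summed level was 1555, 985 and 686 CPM in KO 29 °C, against 422, 451, 1251 and 488 CPM in KO RT, where replicate 3 was far above the others. Of 26 tested, the 4 called higher in KO were Gbp2, Gbp4, Gbp7 and Iigp1, GTPases of cell-autonomous defence. The share of all genes called higher in KO was 24.3%. Gbp2 had 215, 83.4 and 66.8 CPM in KO 29 °C, against 20.5, 27.6, 41.2 and 31.4 CPM in KO RT (2.02 ± 0.37). Members of the Gbp family are closely related, so their reads are uncertain, and the calls of Gbp4, Gbp7 and Iigp1 were lost without KO 29 °C replicate 1 (adjusted p = 0.142, 0.0543 and 0.0842). Gbp4 was also lost without KO RT replicate 1, 2 or 3 (adjusted p = 0.0553 to 0.0581). Over all libraries the median of the list was 0.48. Without KO RT replicate 3, 23 of the 26 were called higher in KO (median 1.33), whereas without KO RT replicates 2 and 4 the count was 2 (median -0.07) and without KO 29 °C replicate 1 it was 1 (median 0.32).

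The endothelial rise of warm WT fat was smaller in knockouts. Of 12 endothelial markers, 7 were called higher in KO (median 0.42) and 12 in WT (median 1.29), and 11 differences were called lower. The shares of all genes were 24.3%, 35.9% and 12.3%. Egfl7, a factor secreted by endothelium, had 50.9, 46.1 and 58.0 CPM in KO 29 °C, against 23.0, 22.7, 30.7 and 29.0 CPM in KO RT (0.97 ± 0.14, adjusted p = 6.3e-05; 2.19 in WT, difference -1.22, adjusted p = 3.9e-04). Cldn5, a tight junction protein of endothelium, changed by 1.99 ± 0.25 in KO and 2.48 in WT, with no called difference. Tie1 and Robo4, endothelial receptors, had differences of -1.13 and -1.36, and their calls in KO were lost without the libraries with muscle transcripts, where 3 endothelial markers were called, and 4 were called without KO 29 °C replicate 3. Tie1 was also lost without KO 29 °C replicate 3 (adjusted p = 0.103). Pgf, placental growth factor, had 3.26, 1.202 and 4.75 CPM in KO 29 °C, against 0.0862, 0.380, 0.282 and 0.244 CPM in KO RT (3.61 ± 0.50; 6.05 in WT, difference -2.45, adjusted p = 0.0312). Its called difference was lost when any of 6 single libraries was left out (adjusted p = 0.0520 to 0.0898). Gpihbp1, which holds lipoprotein lipase on capillaries, had 80.8, 63.0 and 84.6 CPM in KO 29 °C, against 35.7 to 42.6 CPM in KO RT (0.96 ± 0.13; 2.35 in WT).

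Matrix genes rose in knockouts. Of 28 collagen and matrix genes, 16 were called higher in KO (median 0.51) and 8 in WT (median 0.07), beside 24.3% and 35.9% of all genes. Fewer were called higher in KO without the libraries with muscle transcripts. Col1a1, a chain of type I collagen, had 102, 111 and 99.2 CPM in KO 29 °C, against 53.0, 60.0, 54.0 and 44.7 CPM in KO RT (0.98 ± 0.20; -0.04 in WT, difference 1.01, adjusted p = 0.0146). The groups were separate, but without those libraries the call of Col1a1 in KO (adjusted p = 0.0632) and its difference (adjusted p = 0.118) were lost. Dcn, decorin, had 237, 209 and 204 CPM in KO 29 °C, against 92.9, 118, 101 and 90.3 CPM in KO RT (1.11 ± 0.12; 0.70 in WT). Adamts1, a matrix protease, had 77.9, 67.9 and 77.7 CPM in KO 29 °C, against 14.7 to 20.8 CPM in KO RT (2.06 ± 0.13; 2.26 in WT), with no called difference.

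Stress genes of the ATF4 branch rose in knockouts. Of 20 genes of the integrated stress response, 15 were called higher in KO (median 1.06) and 9 in WT (median 0.86), and 8 differences were called higher. The shares of all genes were 24.3%, 35.9% and 16.0%. Gdf15 (chromosome 8, 70629393 to 70632470), a stress-induced cytokine, had 34.5, 8.38 and 13.5 CPM in KO 29 °C, against 0, 0.169, 0.242 and 0.163 CPM in KO RT. All warm libraries lay above KO RT, and the highest was replicate 1. The change was 6.98 ± 0.65 in KO (adjusted p = 4.0e-06) and 3.27 in WT, with a difference of 3.70 (adjusted p = 0.0262). The difference was lost without WT RT replicate 1, 3 or 4 in turn (adjusted p = 0.0534 to 0.0951), and the call in KO was not. With limma-voom or with no filter on low counts the difference was also lost (adjusted p = 0.109 and 0.0605). Because Gdf15 is near 0 in KO RT, the size of its change depends on the prior count of the fit. Sesn2, a stress-induced inhibitor of mTORC1, had 17.7, 13.6 and 19.2 CPM in KO 29 °C, against 7.41, 9.45, 8.54 and 5.32 CPM in KO RT (1.13 ± 0.19; -0.43 in WT, difference 1.56, adjusted p = 5.4e-04). Mthfd2, of mitochondrial folate metabolism, had 28, 20.6 and 16.3 CPM in KO 29 °C, against 3.10 to 5.69 CPM in KO RT (2.20 ± 0.27; 0.79 in WT). Phgdh, which starts serine synthesis, and Atf3, a stress transcription factor, rose by 3.02 ± 0.36 and 2.78 ± 0.42 in KO with no called difference from WT. Fgf21, a hormone also induced by ATF4, was low and not called, with 1.02, 0.301 and 0.277 CPM in KO 29 °C against 0.122 to 0.548 CPM in KO RT (adjusted p = 0.398). Without the libraries with muscle transcripts 12 members were called higher. The letters TGATGNAA, an ATF4 composite motif, were in 5 of 19 matched promoters of the list (26.3%) on either strand, against 2.09% of those of tested genes.

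Heat shock genes differed in part between genotypes. Of 23 cytosolic heat shock genes, 7 were called higher and 3 lower in KO (median 0.06), beside 24.3% and 21.7% of all genes. In WT 14 were called higher (median 0.70). The difference was called lower for 9, beside 12.3% of all genes. The higher calls in KO numbered 1 without KO 29 °C replicate 3, 0 without the libraries with muscle transcripts, and 4 without KO RT replicate 1, without replicate 3 or without replicates 2 and 4. The differences called lower numbered 5 without KO 29 °C replicate 1 or 2 or KO RT replicate 2, and 4 without KO RT replicates 2 and 4. Hspa1a, the inducible HSP70, had 8.82, 5.18 and 52.8 CPM in KO 29 °C, against 1.77, 5.27, 3.26 and 1.14 CPM in KO RT. The groups overlapped, and replicate 3 was by far the highest (2.96 ± 0.81 in KO, adjusted p = 0.0114; 6.94 in WT, difference -3.98, adjusted p = 0.0240). The call in KO was lost without KO 29 °C replicate 3 (1.31, adjusted p = 0.124) and without the libraries with muscle transcripts (1.55, adjusted p = 0.155), and the difference without KO 29 °C replicate 1 or KO RT replicate 2 (adjusted p = 0.0526 and 0.0590). Hspa1a has a near-identical copy, Hspa1b, so its reads are uncertain. Fkbp4, a co-chaperone of HSP90, fell by 0.94 ± 0.09 in KO and 0.71 in WT.

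Transcripts of chaperone-mediated autophagy were called at about the share of all genes in knockouts. Of 23 tested genes, 6 were called higher and 4 lower in KO (median -0.04, against 0.04 over all genes), where 24.3% and 21.7% of all genes were. The 6 higher calls became 3 without KO RT replicates 2 and 4 and 0 without the libraries with muscle transcripts. Hspa8 had 896, 923 and 1390 CPM in KO 29 °C, against 1014, 1164, 1221 and 862 CPM in KO RT. Its groups overlapped (0.01 ± 0.19, adjusted p = 0.984), and the change in WT was 1.15 (difference -1.15, adjusted p = 0.00450). Lamp2, whose splice forms cannot be told apart in gene counts, had 151, 161 and 149 CPM in KO 29 °C, against 175, 158, 180 and 134 CPM in KO RT. Its groups overlapped too (-0.08 ± 0.12, adjusted p = 0.618), and the change in WT was -0.87 (difference 0.80, adjusted p = 0.00173). Mtor, the kinase of mTOR complexes, had 93.7, 125 and 89.9 CPM in KO 29 °C, against 264, 327, 224 and 223 CPM in KO RT (-1.34 ± 0.14, adjusted p = 4.3e-06; -1.98 in WT). Snx10, a sorting nexin of endosomes, had 150, 123 and 86.8 CPM in KO 29 °C, against 259, 210, 227 and 217 CPM in KO RT (-0.93 ± 0.18; -2.71 in WT), a call lost without KO 29 °C replicates 2 and 3. These are transcript levels and do not measure the flux of the process. Of 32 lysosomal genes, 9 were called higher and 10 lower in KO (median -0.13), beside 24.3% and 21.7% of all genes, while 23 were called lower in WT (median -0.66), and 18 differences were called higher. The 9 higher calls became 5 without KO RT replicate 3 or without replicates 2 and 4, and 3 without the libraries with muscle transcripts. Ctsb, cathepsin B, had 1040, 1217 and 909 CPM in KO 29 °C, against 2061, 2116, 1816 and 1842 CPM in KO RT (-0.89 ± 0.12; -1.70 in WT). Ctss, cathepsin S of macrophages, had 94.9, 61.4 and 98.4 CPM in KO 29 °C, against 4.53 to 13.6 CPM in KO RT (3.08 ± 0.36), beside the macrophage marker sums given above.

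Clock genes differed between genotypes in their response. Of 19 tested, 4 were called higher and 6 lower in KO (median -0.02), beside 24.3% and 21.7% of all genes. In WT 12 were called lower (median -0.96), beside 32.8% of all genes. The difference was called higher for 8 and lower for 3, beside 16.0% and 12.3% of all genes. The 4 higher calls became 2 without KO RT replicate 3 or 4, and 1 without KO 29 °C replicate 1, without KO RT replicates 2 and 4 or without the libraries with muscle transcripts. Arntl (chromosome 7, 113178471 to 113314126), which encodes BMAL1, the positive arm of the clock, had 3.21, 4.40 and 7.52 CPM in KO 29 °C, against 7.24, 11.1, 10.8 and 14.95 CPM in KO RT. The knockout groups overlapped at 1 library each (-1.14 ± 0.27, adjusted p = 0.00320), while Arntl rose by 2.51 in WT (difference -3.65, adjusted p = 2.0e-05). Npas2, its partner protein, had 0.119, 0.376 and 0.416 CPM in KO 29 °C, against 1.72, 1.31, 1.89 and 2.40 CPM in KO RT (-2.64 ± 0.33 in KO, 1.93 in WT, difference -4.58, adjusted p = 7.4e-06). Dbp, a clock output factor, had 52.2, 29.5 and 14.8 CPM in KO 29 °C, against 34.3, 24.8, 24.1 and 20.4 CPM in KO RT. Its knockout groups overlapped (0.32 ± 0.36, adjusted p = 0.491), whereas in WT it fell by 4.49 (difference 4.80, adjusted p = 6.2e-05). Per1, of the negative arm, had 53.4, 38.2 and 92.4 CPM in KO 29 °C, against 27.2, 26.7, 14.3 and 10.7 CPM in KO RT (1.64 ± 0.37), a call lost without the libraries with muscle transcripts.

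The promoters of Arntl and Per1 are printed as those of the positive and the negative arm of the clock. The Arntl window lies on the plus strand at chr7:113207215-113207464, inside the gene span given above and not before its first base. Its capitals mark TNGGTCA, a looser pattern than a ROR element, so a match need not be one. Per1 lies on the plus strand at chr11:69098699-69098948, with capitals for CACGTG, an E-box.
Arntl: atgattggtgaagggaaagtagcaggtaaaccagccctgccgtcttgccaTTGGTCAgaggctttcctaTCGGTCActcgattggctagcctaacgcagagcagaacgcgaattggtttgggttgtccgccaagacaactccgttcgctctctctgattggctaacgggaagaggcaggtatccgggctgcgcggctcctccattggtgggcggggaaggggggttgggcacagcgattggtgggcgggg
Per1: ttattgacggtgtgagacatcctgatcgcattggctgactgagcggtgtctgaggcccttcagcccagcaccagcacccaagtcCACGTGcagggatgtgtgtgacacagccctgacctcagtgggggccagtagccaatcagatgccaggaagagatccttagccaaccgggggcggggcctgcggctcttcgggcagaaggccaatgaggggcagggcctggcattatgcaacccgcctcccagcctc
On either strand, CACGTG was in 5 of 16 matched clock promoters (31.2%), against 8.21% of those of tested genes. TNGGTCA was in 4 of 16 (25%), against 8.2%. It was also in 21.1% of integrated stress response, 14.3% of lipogenesis, 13% of cell division and 7.14% of cholesterol synthesis promoters. For CACGTG these shares were 10.5%, 14.3%, 4.35% and 21.4%. CCAAT was in 68.8% of clock promoters, against 36%.

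The remaining large changes in knockouts came from genes of several kinds. Among rises, Slpi, a protease inhibitor of mucosa and leukocytes, reached 6.66, 8.15 and 21.4 CPM in KO 29 °C, against at most 0.161 CPM in KO RT (adjusted p = 1.4e-06). Its difference from WT was called (adjusted p = 0.0125), but not without WT RT replicate 1 (adjusted p = 0.0984). Ubd, a ubiquitin-like modifier induced by interferon, had 37.7, 5.56 and 20.6 CPM in KO 29 °C, against 0.560, 1.14, 0.685 and 0.772 CPM in KO RT (4.75 ± 0.61; 3.78 in WT). Atp6v0d2, a proton pump subunit of macrophages and osteoclasts, had 6.799, 5.52 and 11.9 CPM in KO 29 °C, against 0.172 to 0.403 CPM in KO RT (4.68 ± 0.62). Rgs1, a brake on G-protein signals in leukocytes, had 6.89, 3.72 and 6.48 CPM in KO 29 °C, against 0 to 0.253 CPM in KO RT (5.59 ± 0.58). All 4 had separate knockout groups. Among falls, Cyp1a1, a cytochrome P450, had 0.998, 2.22 and 1.08 CPM in KO 29 °C, against 29.2, 64.7, 29.3 and 17.8 CPM in KO RT (-4.66 ± 0.57; -2.84 in WT). Dnajc22, a J-domain protein, had 0.0376 to 0.238 CPM in KO 29 °C, against 2.36 to 5.48 CPM in KO RT (-4.75 ± 0.48; -6.63 in WT). Hephl1, a copper oxidase, had 0 to 0.166 CPM in KO 29 °C, against 3.49, 11.4, 1.29 and 3.13 CPM in KO RT (adjusted p = 1.4e-04). KO RT replicate 2 was the highest library for Cyp1a1 and for Hephl1.

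**Figure D5:**
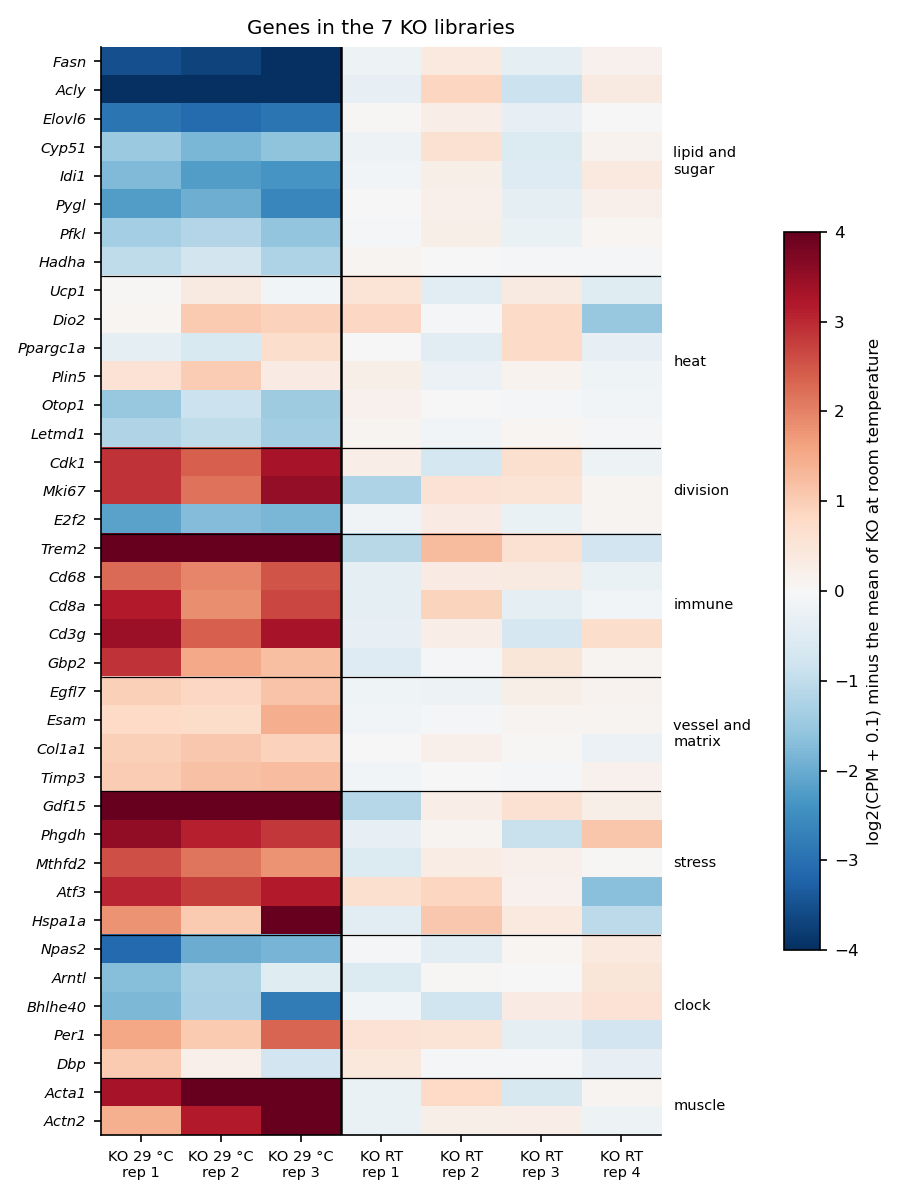
Log2(CPM + 0.1) of 38 genes in the 7 knockout libraries minus the mean of KO RT, KO 29 °C columns left of KO RT, colours limited at 4 either way. Lipogenic genes are low and immune genes high in every KO 29 °C library, while Ucp1 varies as much within KO RT as between the groups.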

How the data were processed

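RNA-seq of brown adipose tissue was analysed from 15 libraries, grouped by the genotype and housing in their titles. Paired-end reads of 150 bases were sequenced, per the labels' protocols. The authors deposited RSEM expected counts per gene symbol, made on mm10 with STAR 2.7.10a and RSEM 1.2.28, per the submitters' processing notes, which also name DESeq2 1.3.40. Of 24030 symbols, 24 had been turned into dates, and 7.26% of the entries carried decimals, so the estimated counts were rounded to whole numbers. Reads shared by near-identical genes are split by the estimate, and the counting is not stated to use strand.

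Counts were fitted with edgeR 4.0.16 (R 4.3.3; quasi-likelihood test, robust) over all 15 libraries in 4 groups, with TMM scaling, edgeR's filter on low counts at a minimum of 10, and Benjamini-Hochberg adjustment over 15083 genes. The 4 groups share 1 estimate of the spread with 11 residual degrees of freedom. The housing effect in KO, that in WT and their difference were contrasts of this fit. The fit was tested on simulated data first. Single shares were compared by exact permutation over 35 arrangements of 3 against 4 libraries. Alternatives were RLE size factors, 2 other filters, DESeq2 1.42.0, limma-voom (limma 3.58.1), a replicate block, stricter thresholds, thinned counts, the muscle share as a covariate, and sets of libraries left out. The counts per list without KO RT replicates 2 and 4 and without the libraries with muscle transcripts, and those with each WT library left out, were added after seeing the data.

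The members and the 44 gene lists were chosen with earlier results of these data known. Genes were named by a rule: Park7, 14 genes fixed by name, the largest changes in KO, in both genotypes and in the difference, and up to 5 members of each list with the smallest p in KO. Of the 117 genes named, 6 fall outside it and were chosen after their values were seen: Hmgcs1, Srebf2, Slc2a1, Pygm, Ppara and Aurka. Other genes picked by the rule are not reported here. None of the 105 pairs of libraries agreed within sampling noise. Promoters were matched by symbol to RefSeq on GRCm38.p6, and the first window listed for a symbol was used.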

Additional observations from a re-analysis of the deposited data

Results flagged for a closer look

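Library values far from the rest of their group of 4 were looked for in 138 groups with Dixon's criterion, which marks about 1 in 20 groups by chance, and 7 were found. Opa1 had 286 CPM in KO RT replicate 1, against 254 to 258 CPM in the other KO RT libraries. Jchain had 2.66 CPM in KO RT replicate 2, against 0.443 to 0.646 CPM, and Cd8a had 1.39 CPM in the same library, against 0.517 to 0.65 CPM. Mzb1 had 0.0806 CPM in KO RT replicate 3 and was at 0 in the others. Skeletal muscle transcripts made up 0.24% of WT 29 °C replicate 2, against 0.00739% to 0.0114% of the other WT 29 °C libraries. In KO RT replicate 3, interferon-stimulated genes summed to 1251 CPM, against 422 to 488 CPM in the other KO RT libraries, and white adipocyte markers to 111 CPM, against 177 to 180 CPM.

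The effect of warm housing differed between the genotypes by the test of the difference itself for 60 of the 117 genes named, 44 with a higher change in KO and 16 with a lower one. The differences below are log2 fold changes in KO minus those in WT. For thermogenic and adipocyte genes they were 3.12 for Ucp1, 3.53 for Dio2, 2.61 for Ppargc1a, 1.86 for Plin5, 1.59 for Ppara, 1.07 for S100b, 1.65 for Otop1, 1.15 for Letmd1, 0.68 for Kcnk3, 3.33 for Bmp8b, 0.58 for Adipoq, 0.94 for Pparg and 1.26 for Klf15. For lipolysis and lipid handling they were 1.99 for Plin1, 2.96 for Adcy10, 1.63 for Lpl, 1.27 for Gpam and -1.39 for Gpihbp1. For mitochondrial genes they were 1.28 for Hadha, 0.52 for Cpt1a, 1.0 for Ndufs1, 1.02 for Opa1, -1.04 for Atp5k, -0.75 for Uqcr10 and -1.69 for ATP8. For lipid and sugar synthesis they were 0.92 for Elovl6, -0.89 for Elovl5, -1.57 for Cyp51, 0.48 for Ldha, 0.83 for Pgk1 and 0.52 for Gys1.

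Among immune genes the difference was 2.74 for Jchain, 6.29 for Mzb1, 1.99 for Cd3d, 1.73 for Cd8a, 1.15 for Cd68, 1.47 for Gbp2 and 4.92 for Slpi. The values for Mzb1 and Slpi, and that for Gdf15 given below, rest on 0 to a few counts in KO RT and depend on the prior count of the fit. Vessel and matrix genes gave -1.22 for Egfl7, -1.13 for Tie1, -1.36 for Robo4, -2.45 for Pgf and 1.01 for Col1a1. Stress genes gave 3.70 for Gdf15, 1.56 for Sesn2, 1.42 for Mthfd2, 1.34 for Hmox1, -3.98 for Hspa1a and -1.15 for Hspa8. Lysosome and nutrient-sensing genes gave 0.80 for Lamp2, 1.78 for Snx10, 0.81 for Ctsb and 0.65 for Mtor. Clock and cell cycle genes gave -3.65 for Arntl, -4.58 for Npas2, 4.80 for Dbp and -3.74 for E2f2. Insulin signalling genes gave 4.71 for Irs2, 0.48 for Insr and -1.06 for Grb10.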

How the results depend on the processing

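The number of genes called in KO, 6940 in the reported fit, was 4374 over 1.5-fold, 4129 without the 3 libraries with muscle transcripts, 4022 without KO 29 °C replicates 2 and 3, and 4284 with the muscle share as a covariate. Leaving out 1 library at a time gave 5490 (without KO 29 °C replicate 3) to 7273 calls in KO, 9781 to 10529 in WT and 3277 (without KO 29 °C replicate 2) to 4563 in the difference. The difference had 2304 calls at an adjusted p below 0.01. DESeq2 gave 7053 calls in KO and 4545 in the difference. The share of WT-higher genes also called in KO, 53.1%, was 28.6% without the libraries with muscle transcripts and 40.4% to 55% with 1 library left out. The share of WT-lower genes, 53.7%, was 35.7% over 1.5-fold and 42.4% to 57.2% with 1 library left out. The cause was not tested, apart from the fewer libraries and the added limit that these settings bring. Warm knockouts held 27.2 times the muscle share of KO RT, and 10.7 to 39.7 times with 1 library left out. With the replicate number as a block, 6691 genes were called in KO, 10270 in WT and 4045 in the difference. Among named genes, the block ended the call of Hmgcs1 (-0.39, adjusted p = 0.0565) and the called differences of Jchain (2.60, adjusted p = 0.0918) and Gbp2 (1.36, adjusted p = 0.117), and Cidea was called with it (-0.46, adjusted p = 0.0293). The replicate numbers did not pair libraries of KO 29 °C and KO RT: the correlations of their deviations were -0.05, -0.04 and 0.06, and a library did not always correlate best with its own number. Of 177 values of named genes, 126 kept their side of the threshold in every alternative. In at least 1 alternative, 45 lost the threshold and 6 crossed it. No called change turned its direction. Direction was not compared where neither fit called the value, and the change of Ucp1 in KO ran from -0.34 to 0.24. Called differences lost with 1 library left out, beside those given above, were those of Elovl6, Cd8a, Cpt1a, Gys1, Mtor, Gbp2, Adipoq, Bmp8b and Insr (adjusted p = 0.0503 to 0.135). Without the libraries with muscle transcripts the called differences of Gys1, Cpt1a, Mtor, Adipoq, Bmp8b and Insr were also lost (adjusted p = 0.0571 to 0.598). Without KO RT replicates 2 and 4 those of Ldha, Gys1, Dio2, Kcnk3, Cpt1a, Gdf15, Gbp2, Pgf, Hspa1a, Adipoq, Pparg and Insr were lost (adjusted p = 0.0530 to 0.216), as were the calls in KO of Gbp7, Iigp1 and Hspa1a (adjusted p = 0.0534 to 0.0871). With 3 libraries in KO 29 °C, 2 of which carry muscle transcripts, 1 library can decide a call of a low gene.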

Other observations

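Genes of fat cell identity and of insulin signalling were called in part in warm knockouts. Of 15 adipogenic regulators, 5 were called higher and 5 lower in KO (median -0.14), beside 24.3% and 21.7% of all genes, while 13 were called lower in WT (median -0.98). The 5 higher calls became 3 without KO RT replicate 2, 2 without KO RT replicates 2 and 4, and 1 without the libraries with muscle transcripts. Pparg, the master regulator of fat cells, had 243, 346 and 211 CPM in KO 29 °C, against 228, 235, 259 and 212 CPM in KO RT. Its knockout groups overlapped (0.19 ± 0.18, adjusted p = 0.413; -0.75 in WT, difference 0.94, adjusted p = 0.0113, or 0.103 without the libraries with muscle transcripts). Klf15, a transcription factor of adipocyte metabolism, had 10.1, 17.2 and 9.12 CPM in KO 29 °C, against 41.3, 36.2, 51.1 and 35.8 CPM in KO RT (-1.76 ± 0.21; -3.03 in WT). Of 18 insulin signalling genes, 6 were called lower and 1 higher in KO, beside 21.7% and 24.3% of all genes. The higher calls numbered 3 without KO 29 °C replicate 2, and 9 genes were called lower in WT. Irs2, an adaptor of the insulin receptor, had 22.3, 36.5 and 15.3 CPM in KO 29 °C, against 36.7, 17.2, 10.1 and 3.70 CPM in KO RT (0.55 ± 0.65, adjusted p = 0.523; -4.16 in WT, difference 4.71, adjusted p = 0.00330). Insr, the receptor, fell by 0.67 ± 0.11 in KO with separate groups, and Grb10, an inhibitor of the receptor, rose by 0.62 ± 0.13 in KO and 1.69 in WT.

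Secreted factors of fat were mixed. Over all genes tested, 24.3% were called higher and 21.7% lower in KO. Of 19 adipokines and batokines, 8 were called higher and 3 lower in KO (median 0.60), or 4 and 1 without the libraries with muscle transcripts. Lep, leptin, had 178, 127 and 83.4 CPM in KO 29 °C, against 24.5, 77.8, 5.96 and 68.7 CPM in KO RT. Its groups did not overlap, but the change was not called (1.55 ± 0.77, adjusted p = 0.122), except by limma-voom (adjusted p = 0.0228) or without KO RT replicates 2 and 4 (adjusted p = 0.0264). Adipoq, adiponectin, had 689, 860 and 611 CPM in KO 29 °C, against 822, 787, 736 and 675 CPM in KO RT (-0.07 ± 0.13, adjusted p = 0.704). Retn, resistin, had 27.6, 22.1 and 23.2 CPM in KO 29 °C, against 96.4, 78.7, 38.4 and 80.7 CPM in KO RT (-1.60 ± 0.33, adjusted p = 0.00155, or 0.0680 without the libraries with muscle transcripts). Bmp8b, a factor induced in active brown fat, had 0.166 to 0.277 CPM in KO 29 °C, against 0.772 to 3.42 CPM in KO RT (-3.01 ± 0.54). Mest, a marker of expanding fat cells, had 6.37, 1.47 and 5.72 CPM in KO 29 °C, against 0.603 to 0.853 CPM in KO RT (2.60 ± 0.39; 3.95 in WT). Hmox1, heme oxygenase, had 49.3, 29.9 and 45.0 CPM in KO 29 °C, against 5.47 to 12.4 CPM in KO RT (2.12 ± 0.27; 0.78 in WT). Hbb-bs, a globin of red cells, had 1213, 657 and 1018 CPM in KO 29 °C, against 233 to 387 CPM in KO RT (1.62 ± 0.26; 2.54 in WT).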
